A study of Mus musculus with 12 samples.

Results

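The Cdkn2a and Cdkn2b locus of mouse chromosome 4 was taken as the deposited transcript rows that overlap a window of the mm9 genome build covering both genes. The window held 5 of the 55115 positioned transcript rows in the table, which fall into 4 of 26699 sums of transcripts that overlap on one strand. The RNA came from kidney cells of mice at postnatal day 0, isolated by fluorescence-activated sorting as Six2-expressing cells that carry the R26R-tdTomato reporter in every group, and was amplified from low input and sequenced. Sample titles give 4 groups, namely mutant cells of high expression (2 libraries), control cells of high expression (2 libraries), mutant cells of low expression (4 libraries) and control cells of low expression (4 libraries), here called mutant high, control high, mutant low and control low. The labels used here do not state which signal was high or low, the mutant allele, the Cre driver or whether each replicate is an animal of its own. The p-values therefore reflect differences among libraries of a group, which may be partly technical. The study's title names Eed, a subunit of Polycomb repressive complex 2, and the question addressed here is how the cell-cycle inhibitors of this locus compare between mutant and control cells in each population.

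As background, the locus encodes inhibitors of the cell cycle from separate promoters. Cdkn2b makes p15 and one Cdkn2a transcript makes p16, which both bind the cyclin D kinases Cdk4 and Cdk6 and so keep the retinoblastoma protein active. A second Cdkn2a promoter upstream makes Arf, called p19Arf in mouse, whose mRNA shares its later exons with p16 in another reading frame and whose protein binds Mdm2 and so stabilises p53. In dividing progenitors the locus is a classical target of Polycomb repression: repressive complex 2, with Eed as the subunit that reads trimethylated lysine 27 of histone H3, places that mark, and repressive complex 1, with Bmi1 and Ring1, binds to it. The locus becomes active in senescence and in ageing tissue.

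All 3 coding transcripts lie on the minus strand. The p16 transcript spans chr4:88920377-88928096 and the Arf transcript chr4:88920377-88940523 in mm9, with starts 12427 bases apart, the same distance as between these starts in RefSeq. Cdkn2b spans chr4:88952198-88956941, and its start lies 16418 bases upstream of the Arf start. In the GENCODE M21 models, p16 has 3 exons of 852 bases in all, Arf 3 exons of 895 bases and Cdkn2b 2 exons of 1390 bases. The 2 Cdkn2a models share 575 exonic bases, so 277 bases tell p16 and 320 bases tell Arf. A transcript on the plus strand, at chr4:88941084-89185312, starts 561 bases from the Arf start and runs across Cdkn2b. The last row, on the minus strand at chr4:88881606-88918491, enters the window by 492 bases and ends 1885 bases short of Cdkn2a.

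The 250 bases upstream of each coding start are shown because transcripts from these 3 promoters are what the values below separate. They are RefSeq sequences of build GRCm38.p6, minus strand, with CpG dinucleotides in capitals, from chr4:89294620-89294869 for Arf, chr4:89282193-89282442 for p16 and chr4:89311033-89311282 for Cdkn2b.
Arf: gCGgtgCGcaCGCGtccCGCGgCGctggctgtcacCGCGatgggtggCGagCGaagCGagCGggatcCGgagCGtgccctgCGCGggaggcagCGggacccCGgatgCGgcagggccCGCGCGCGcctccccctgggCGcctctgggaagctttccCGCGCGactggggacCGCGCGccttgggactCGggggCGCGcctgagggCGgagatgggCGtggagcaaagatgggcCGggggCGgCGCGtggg
p16: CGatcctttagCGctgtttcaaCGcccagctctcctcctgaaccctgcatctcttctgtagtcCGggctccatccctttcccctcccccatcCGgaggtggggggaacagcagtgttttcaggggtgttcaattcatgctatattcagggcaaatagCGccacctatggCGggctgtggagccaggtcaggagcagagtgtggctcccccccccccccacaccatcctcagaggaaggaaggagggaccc
Cdkn2b: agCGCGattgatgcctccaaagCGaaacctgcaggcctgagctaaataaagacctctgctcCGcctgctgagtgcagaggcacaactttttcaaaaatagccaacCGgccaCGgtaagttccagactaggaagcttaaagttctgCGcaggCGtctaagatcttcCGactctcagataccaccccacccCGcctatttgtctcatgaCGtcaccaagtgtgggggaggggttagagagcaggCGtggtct
The Arf promoter held 40 CpG (C followed by G, which reads the same on both strands), and 1.31% of 32851 RefSeq promoter windows of this length held as many or more. The Cdkn2b promoter held 12, a number reached by 33.5% of windows, and the p16 promoter held 7, reached by 46.3%; the median window held 6. The G+C content was 78.4% for Arf, 53.6% for Cdkn2b and 60.0% for p16.

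Library totals were 4549011 to 12365078 estimated fragments. The 2 control high libraries stood apart, with 4.51% and 10.3% of fragments from the mitochondrial chromosome against 0.494% to 1.96% in the other 10, and with 29.1% and 34.4% in their 100 most abundant loci against 18.8% to 22.1%. The 12 libraries also differed in fragments from chromosome Y, which numbered 934 to 2101 in 6 libraries and 0 to 2 in the other 6, among them both control high libraries and 1 of the 2 mutant high libraries. The levels of Eed were 4.73 and 7.26 CPM (fragments per 1000000, scaled by TMM) in the mutant high libraries, against 8.74 and 9.07 CPM in the control high libraries. In the low cells, Eed was at 7.27, 11.1, 5.44 and 9.91 CPM in mutant low and at 14.4, 13.05, 15.5 and 13.4 CPM in control low. Eed was lower on average in the mutant of both populations, but neither difference passed the test. The log2 fold change was -0.57 in high cells (SE 0.39, edgeR quasi-likelihood adjusted p = 0.291) and -0.74 in low cells (SE 0.26, adjusted p = 0.107). Whether and how the mutation changes the Eed transcript is not stated, so this level does not check the labels fully. Six2 itself was not matched to a row. Of the nephron progenitor markers, Osr1 and Meox1 were matched, and their summed level was 2.58 to 3.57 CPM in mutant high, 0.567 to 0.832 CPM in control high, 1.78 to 6.10 CPM in mutant low and 5.08 to 22.6 CPM in control low.

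Cdkn2b, which encodes p15, was the most abundant member in the high cells and rose in the mutant in both populations. In high cells it had 353 and 194 fragments in mutant libraries, or 34.1 and 23.9 CPM, against 6 and 3 fragments in control libraries, or 1.25 and 0.851 CPM. In low cells it had 40, 17, 67 and 69 fragments in mutant libraries, or 4.62, 2.59, 7.44 and 5.60 CPM, against 2, 3, 3 and 0 fragments in control libraries, or 0.234, 0.408, 0.324 and 0 CPM. The groups did not overlap in either population: the lowest mutant library was several times above the highest control library. Group means were 29.0 ± 7.23 CPM in mutant high and 1.05 ± 0.281 CPM in control high (SD, n = 2 each), and 5.06 ± 2.02 CPM in mutant low and 0.241 ± 0.176 CPM in control low (SD, n = 4 each). Summed over libraries, mutant high exceeded control high 27.4-fold (95% exact counting interval 14.3 to 60.3, from 547 and 9 fragments) and mutant low exceeded control low 24.7-fold (12.3 to 57.9, from 193 and 8 fragments). These intervals cover counting error only.

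The edgeR quasi-likelihood test gave Cdkn2b a log2 fold change of 4.74 (SE 0.68, adjusted p = 0.000316) in high and 4.44 (SE 0.54, adjusted p = 0.000134) in low cells, where the medians over all 13749 loci were 0.08 and -0.06. Cdkn2b was thus called higher in each population, where 16.3% of loci were called higher in mutant high and 4.82% in mutant low. The other testable sum, Cdkn2a, was called higher too. With no fragment in any control library, it passed the low-count filter only through the mutant libraries and could not have been called lower. Groups without overlap, mutant above control, were seen at 35.9% of loci in high cells and 7.46% in low cells. Among the loci tested, 1.75% had a larger log2 fold change than Cdkn2b in high cells and 0.320% in low cells. In bulk RNA, fewer cells that express a gene and less RNA per cell cannot be told apart, here and in every comparison that follows.

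**Figure D1:**
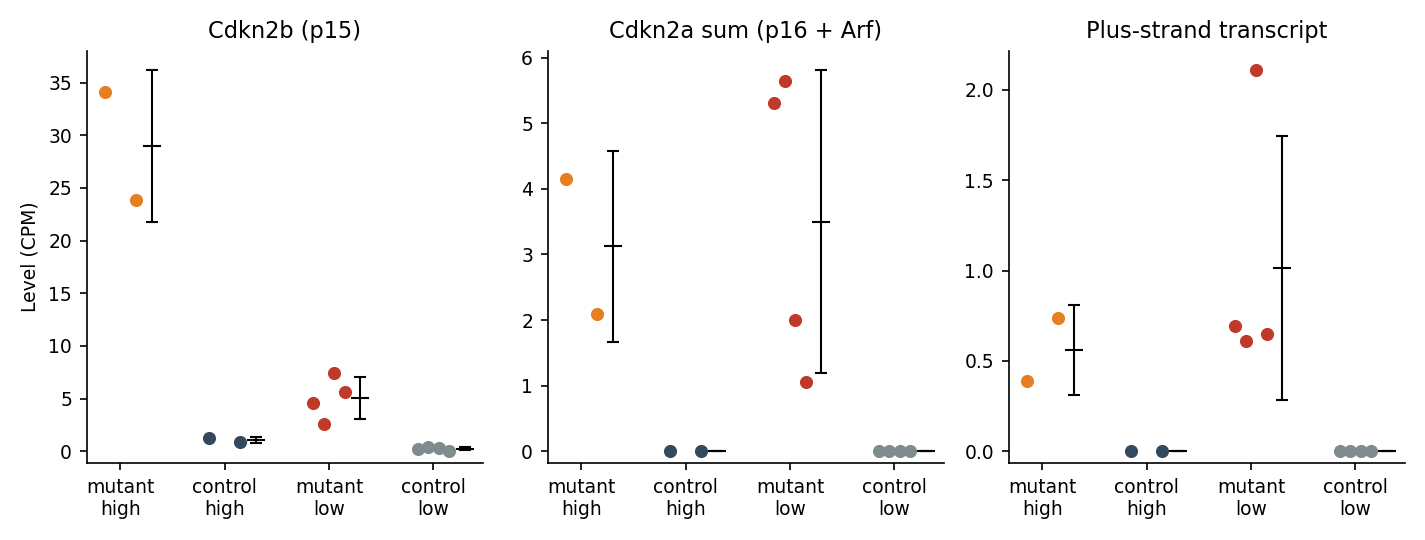
Level in CPM (vertical axis, a scale of its own in each panel) of Cdkn2b, the Cdkn2a sum and the plus-strand transcript in each library, by group; points are libraries, and the bar beside them is the mean with its SD. The mutant high libraries stood highest for Cdkn2b, at 34.1 and 23.9 CPM, while Cdkn2a and the plus-strand transcript were at 0 in all 6 control libraries.

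Cdkn2b also differed between the high and low populations within each genotype. In mutant cells, the high libraries (34.1 and 23.9 CPM) all lay above the low libraries (2.59 to 7.44 CPM), and the summed levels differed 5.61-fold (95% exact counting interval 4.75 to 6.64). Mutant high against mutant low gave 2.50 on the log2 scale (SE 0.44, edgeR adjusted p = 0.000513), in a comparison that called 19.0% of loci higher and put every high library above every low one at 26.7% of loci. In control cells, 9 fragments in the high libraries stood against 8 in the low libraries, a 5.04-fold difference in level (1.73 to 15.02), with a log2 fold change of 2.20 (SE 0.81, adjusted p = 0.0329) where 25.3% of loci were called higher and 30.7% had every high library above every low one. That control call was lost without control high replicate 1 (adjusted p = 0.233), without control high replicate 2 (0.0649) or without control low replicate 4 (0.0535), so at this depth it rests on few fragments. The mutant effect on Cdkn2b did not pass a test of difference between the populations: the log2 difference, high minus low, was 0.30 (SE 1.26, edgeR adjusted p = 0.908), where 10.3% of loci were called, and its sign turned without control low replicate 2 (-0.045) and with limma-voom (-0.013). The order of group means was mutant high, mutant low, control high and control low, and no neighbours in it overlapped between single libraries in CPM. The last step depends on scaling to depth, since control high replicate 2 and control low replicates 2 and 3 each held 3 fragments. For mutant low above control high, the share of all loci without overlap was not computed.

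The Cdkn2a sum, p16 and Arf together, was detected in all 6 mutant libraries and in none of the 6 control libraries. It had 43 and 17 fragments in mutant high, or 4.15 and 2.09 CPM, and 0 in both control high libraries. It had 46, 37, 18 and 13 fragments in mutant low, or 5.31, 5.64, 2.00 and 1.06 CPM, and 0 in all 4 control low libraries. The 2 mutant populations overlapped, and within mutant low the first pair of libraries stood above the other pair.

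A count of 0 was taken to allow up to 3 fragments per group, which is 0.360 CPM for control high and 0.0803 CPM for control low. The summed level of Cdkn2a was 9.02 times this limit in mutant high and 38.8 times in mutant low. These ratios leave out counting error in the mutant libraries, so they are not strict lower bounds. Cdkn2a entered the edgeR test only through its mutant fragments. Its difference between mutant and control passed in both populations, with adjusted p = 0.0168 in high cells and 0.00166 in low cells. The call in high cells was lost without mutant high replicate 1 (adjusted p = 0.0639), control high replicate 1 (0.0912) or control high replicate 2 (0.0817). A pattern of no fragment in any control library and at least 1 in each mutant library was met by 25 of 26699 loci, or 0.0936%, and the Cdkn2a sum and the plus-strand transcript are 2 of the 25.

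Unlike Cdkn2b, Cdkn2a did not pass the test between the mutant populations. Its means were 3.12 ± 1.46 CPM in mutant high (SD, n = 2) and 3.50 ± 2.32 CPM in mutant low (SD, n = 4), at -0.12 on the log2 scale (SE 0.67, edgeR adjusted p = 0.908). The sign of this difference turned without mutant low replicate 1 (0.13), mutant low replicate 2 (0.19) or mutant high replicate 2 (0.26) and with limma-voom (0.20). Its level in the control populations, both at 0, gives no fold. Cdkn2b fragments per Cdkn2a fragment were 8.21 and 11.4 in the mutant high libraries and 0.870, 0.459, 3.72 and 5.31 in the mutant low libraries. These sets did not overlap, but neither did the levels of Cdkn2b alone, and no share over other pairs of loci was computed. Mutant low libraries 1 and 2 had more Cdkn2a than Cdkn2b fragments. Per kilobase of exon, Cdkn2b was at 20.9 ± 5.20 CPM per kb and Cdkn2a at 2.665 ± 1.24 CPM per kb in mutant high (SD, n = 2), against 3.64 ± 1.45 and 2.99 ± 1.98 CPM per kb for these genes in mutant low (SD, n = 4).

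The split of Cdkn2a fragments between its 2 transcripts differed widely from one mutant library to the next, and in mutant low replicate 2 the part assigned to p16 came to less than 1 fragment. The Arf transcript, the one that leads to p53, was assigned 17.6 and 13.6 fragments in mutant high, or 1.70 and 1.67 CPM, and 9.85, 36.1, 7.30 and 9.01 fragments in mutant low, or 1.14, 5.50, 0.811 and 0.731 CPM. The p16 transcript, the one that leads to Cdk4 and Cdk6, was assigned 25.4 and 3.44 fragments in mutant high, or 2.45 and 0.423 CPM, and 36.2, 0.931, 10.7 and 3.99 fragments in mutant low, or 4.17, 0.142, 1.19 and 0.324 CPM. Both were at 0 in all 6 control libraries. Summed levels of Arf were 4.69 times the control limit of 3 fragments in mutant high and 21.2 times in mutant low. Those of p16 were 4.33 and 17.6 times the limit, again without counting error in the mutant libraries.

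Arf held 41.03% (95% exact binomial interval 27.0 to 57.9) and 79.8% (56.6 to 96.2) of the Cdkn2a fragments in mutant high replicates 1 and 2. It held 21.4% (10.9 to 36.4), 97.5% (85.8 to 99.9), 40.6% (17.3 to 64.3) and 69.3% (38.6 to 90.9) in mutant low replicates 1 to 4. Mutant low replicates 1 and 2, alike in their Cdkn2a sum, thus stood at opposite ends, one mostly p16 and the other nearly all Arf. The fragments were divided between the transcripts by the authors' estimate, so these intervals on rounded fragments are narrower than the full error. The mean share of Arf was 60.4% ± 27.4 in mutant high (SD, n = 2) and 57.2% ± 33.3 in mutant low (SD, n = 4), a difference of 3.21 percentage points (two-sided exact permutation p = 0.8; the smallest p this design allows is 0.133). The sign of this difference turned without mutant high replicate 2 (-16.2 points), mutant low replicate 1 (-8.71) or mutant low replicate 3 (-2.32).

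Tested as separate transcripts, Cdkn2b rose in mutant high (edgeR adjusted p = 0.0158) and in mutant low (0.0129), where 6.78% and 1.37% of 21343 transcripts were called higher. Neither Cdkn2a transcript passed alone: Arf had adjusted p = 0.115 in high and 0.0650 in low cells, and p16 had 0.226 in high and 0.173 in low cells. For these transcripts the low comparison depended on the tool, since DESeq2 gave Arf an adjusted p = 0.00115 and p16 an adjusted p = 0.0341 there.

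**Figure D2:**
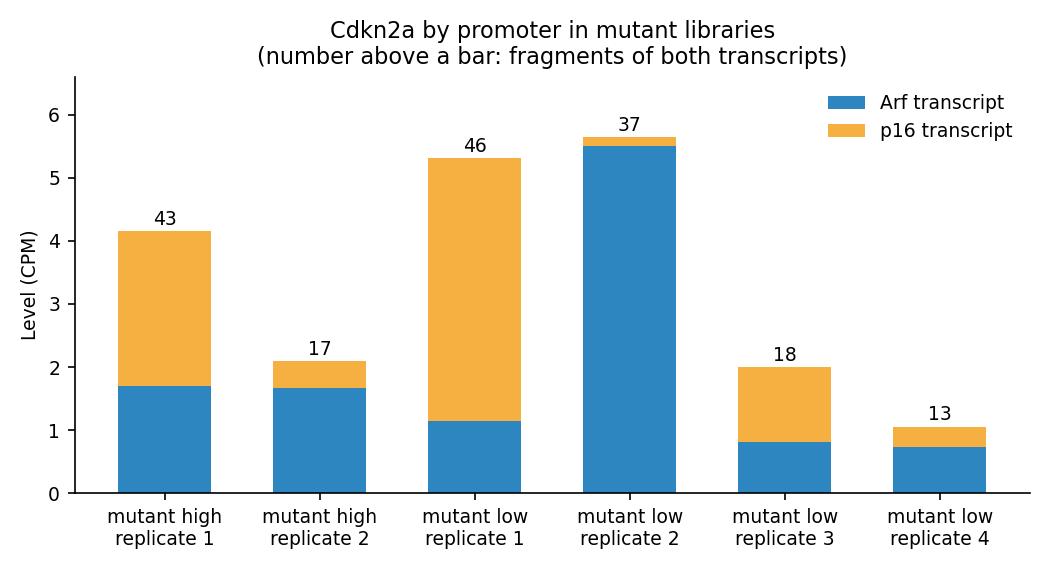
Level in CPM (vertical axis) of the Arf and p16 transcripts of Cdkn2a in the 6 mutant libraries, stacked; the number above a bar counts the fragments of both. Mutant low replicates 1 and 2 had sums of 5.31 and 5.64 CPM, with Arf at 21.4% and 97.5% of the fragments.

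The plus-strand transcript had 4 and 6 fragments in mutant high, or 0.386 and 0.738 CPM, and 6, 4, 19 and 8 fragments in mutant low, or 0.693, 0.610, 2.11 and 0.650 CPM, and none in the 6 control libraries. Its summed level was 1.504 times the limit of 3 fragments of the matching controls in mutant high, and 12.6 times in mutant low. These ratios leave out counting error in the mutant, where the high group held 10 fragments in all, so they set no lower bound. The transcript failed the low-count filter, and without that filter its edgeR adjusted p was 0.122 in high and 0.00177 in low cells. The library protocol named in the labels is not stated to mark strand. Where exons of this transcript overlap those of genes on the other strand, their fragments may not be told apart. Whether any do overlap was not examined. The row downstream of Cdkn2a had 1 fragment, in mutant high replicate 1, and none in the other 11 libraries.

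Around the locus, few genes were expressed. Of 37 other loci that overlap 1 Mb on either side, 27 had no fragment in any library, 5 had 1 to 5 fragments in all and 5 were tested. Mtap, which encodes an enzyme of methionine salvage, averaged 158 ± 49.4 CPM in mutant low and 91.6 ± 6.32 CPM in control low (SD, n = 4 each) and rose by 0.79 on the log2 scale (SE 0.20, edgeR adjusted p = 0.0270). That call was lost on leaving out mutant low replicate 3 (adjusted p = 0.0666) or any one of control low replicates 1 to 4 (0.0566, 0.0846, 0.0519 and 0.0512). In high cells Mtap was at 77.0 ± 3.32 CPM in the mutant and 46.0 ± 1.51 CPM in the control (SD, n = 2 each), with a log2 fold change of 0.74 and adjusted p = 0.0733. Dmrta1, a DM-domain gene on the other side, had a log2 fold change of 0.42 (adjusted p = 0.720) in high and 0.23 (adjusted p = 0.738) in low cells. None of the 5 tested neighbours was called in high cells, where 27.5% of all loci were, and Mtap alone was called in low cells, where 8.03% of all loci were.

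**Figure D3:**
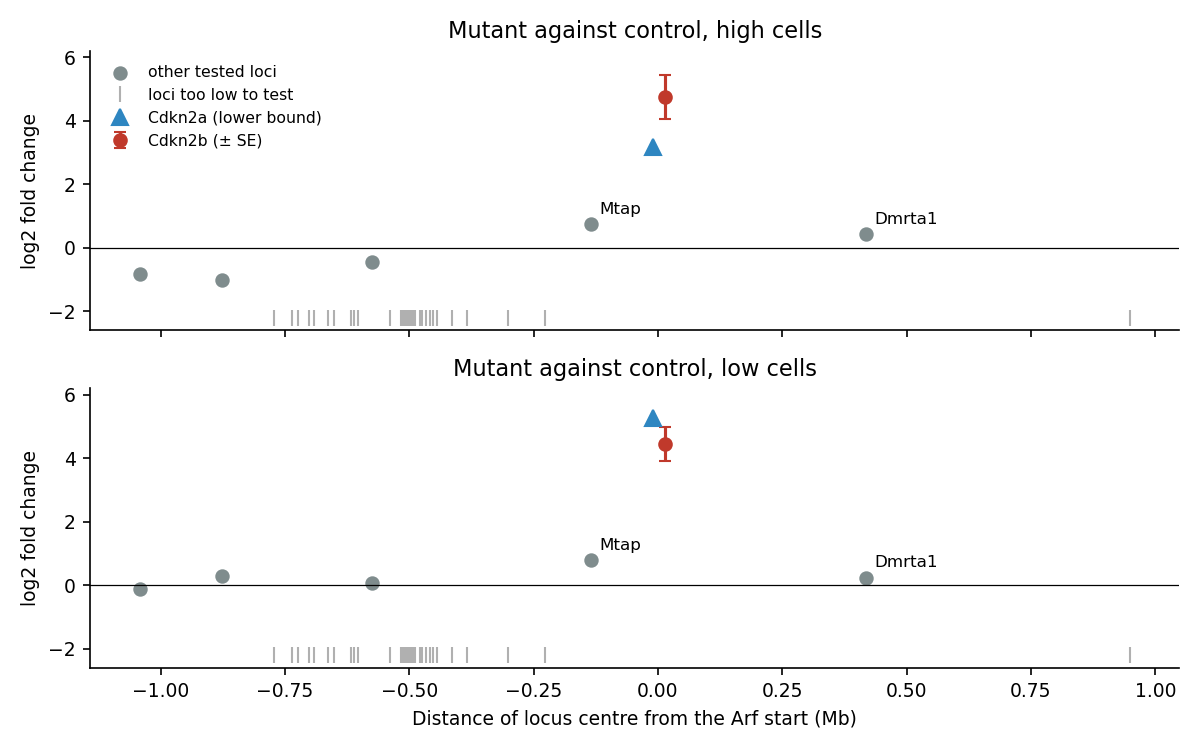
Log2 fold change of mutant against control (vertical axis) for loci around the Arf start, in high and low cells. The horizontal axis is the distance of their centres from that start in Mb. Ticks mark loci too low to test, and the Cdkn2b bar is its SE. The triangle is the summed mutant level of Cdkn2a over the control limit given in the text, on the log2 scale. It leaves out counting error in the mutant libraries, so it is not a strict lower bound. Cdkn2b stood at 4.74 and 4.44, while Mtap, the nearest tested neighbour, stood at 0.74 and 0.79.

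The 5 tested loci whose log2(CPM + 1) followed the Cdkn2a sum most closely over the 12 libraries had Pearson r of 0.947 to 0.976. The closest lay at chr2:93482591-93521496 and the next at chr2:130876553-130889550. For Cdkn2b the 5 closest had r of 0.967 to 0.979, led by chr6:124380774-124414802 and chr7:37483137-37558476. The 2 genes of the locus had r of 0.738 with each other, with 310 loci above Cdkn2b in the ranking for Cdkn2a and 588 above Cdkn2a in the ranking for Cdkn2b. The 12 libraries share 4 group levels, so these values describe the group pattern and carry no test.

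Genes that act with the products of the locus were taken from a list of 30 cell-cycle, p53 and Polycomb genes, of which 12 could be matched to rows and 11 tested. In high cells 4 rose and 0 fell in the mutant, where 27.5% of all loci were called in either direction, and their median log2 fold change was 0.75 against 0.08 over all loci. In low cells 2 rose and 0 fell, where 8.03% of loci were called, with a median of 0.18 against -0.06. Cyclins D1 and D2, the partners of Cdk4 and Cdk6 that p15 and p16 oppose, rose in both populations.

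Ccnd2, which encodes cyclin D2, averaged 88.3 ± 15.4 CPM in mutant high and 5.29 ± 0.132 CPM in control high (SD, n = 2 each), a rise of 4.06 on the log2 scale (SE 0.37, edgeR adjusted p = 2.9e-05). It averaged 190 ± 42.2 CPM in mutant low and 46.6 ± 10.8 CPM in control low (SD, n = 4 each), with a log2 fold change of 2.02 (SE 0.23, adjusted p = 6.9e-05). The 2 effects differed, high minus low, by 2.03 (SE 0.41, adjusted p = 0.00691). Ccnd1, which encodes cyclin D1, rose by 2.83 in high cells (SE 0.74, adjusted p = 0.0146) and by 2.09 in low cells (SE 0.50, adjusted p = 0.0231) on the log2 scale. Its 2 mutant high libraries spread from 73.0 to 374 CPM, against 21.8 to 41.1 CPM in control high. The Ccnd1 call in high cells was lost without mutant high replicate 2 (adjusted p = 0.193) or control high replicate 1 (0.102), and in low cells without mutant low replicate 3 (0.0707), control low replicate 2 (0.0607) or control low replicate 3 (0.0521). It was also lost in high cells in a fit of only the groups compared (0.0880), and in low cells with a replicate block on the title number (0.0747) and with no low-count filter (0.0531).

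In high cells the transcription factor E2f3, which retinoblastoma-family proteins restrain, rose by 1.17 (SE 0.29, edgeR adjusted p = 0.00875), and the Polycomb gene Bmi1, a known repressor of this locus, rose by 1.41 (SE 0.37, adjusted p = 0.0114) on the log2 scale. The E2f3 call was lost without mutant high replicate 2 (adjusted p = 0.103) or control high replicate 2 (0.0935), and the Bmi1 call without the same libraries (0.122 and 0.119). Trp53, which encodes p53, had a level of 227 ± 1.31 CPM in the mutant high group and 143 ± 25.9 CPM in control high (SD, n = 2 each; adjusted p = 0.0592), and at 488 ± 39.4 CPM in mutant low and 504 ± 47.6 CPM in control low (SD, n = 4 each; adjusted p = 0.909). Between populations, 0 of the 11 genes rose and 3 fell in mutant high against mutant low, where 32.2% of all loci were called, and 0 rose and 7 fell in control high against control low, where 52.3% were called, Ccnd2, E2f3 and Trp53 among those that fell in both. Without mutant high replicate 2, Ccnd2 no longer passed in mutant cells (adjusted p = 0.0891), and the control calls of Ccnd1 and Ccne1 were lost without control high replicate 1 (0.105 and 0.179) and that of Ring1 without control high replicate 2 (0.106).

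**Figure D4:**
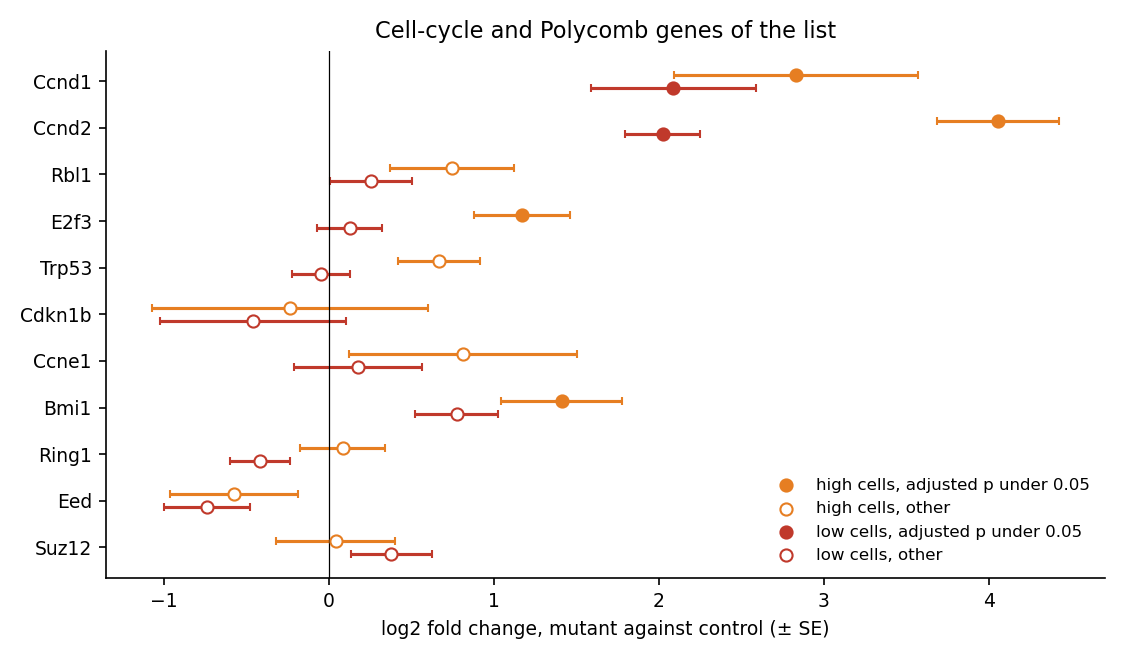
Log2 fold change of mutant against control with its SE (horizontal axis) for the 11 tested genes of the list, in high and low cells; filled points had an adjusted p under 0.05. Ccnd2 stood at 4.06 in high and 2.02 in low cells, and Trp53 and Eed did not pass in either.

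Markers of other kidney cell types moved with some of these comparisons, and their part in the results for the locus was not tested. Of 10 matched markers, 3 rose and 1 fell in mutant high against control high, and 1 rose and 1 fell in mutant low against control low, where 27.5% and 8.03% of all loci were called in either direction. Foxd1, a marker of stromal progenitors, rose in both, by 2.28 (SE 0.71, edgeR adjusted p = 0.0301) in high and by 1.69 (SE 0.43, adjusted p = 0.0247) in low cells on the log2 scale. The Foxd1 call was lost without mutant high replicate 1, control high replicate 1 or control high replicate 2 in high cells (adjusted p = 0.471, 0.172 and 0.0913), and without mutant low replicate 3 or control low replicate 2, 3 or 4 in low cells (0.0813, 0.0778, 0.0523 and 0.0689). Col1a2, the other stromal marker matched, rose by 1.29 on the log2 scale in high cells (SE 0.44, edgeR adjusted p = 0.0425). That call was lost without control low replicate 3 (0.0537). It was also lost on leaving out any single library of either high group, which leaves 1 library in that group. The log2 fold change in those fits ran from 1.10 to 1.49. In low cells Col1a2 had a log2 fold change of -0.41 (SE 0.31, adjusted p = 0.517), opposite in sign to Foxd1. The 2 stromal markers summed to 95.6 to 107 CPM in mutant high and 34.7 to 43.7 CPM in control high. They summed to 39.1 to 63.8 CPM in mutant low and 27.2 to 42.3 CPM in control low. Cubn, a receptor of proximal tubule, fell in both populations. It fell by 2.11 in high cells (adjusted p = 0.00363, and 0.0517 without mutant high replicate 2) and fell by 2.41 in low cells (adjusted p = 0.00166) on the log2 scale.

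Ret, a receptor of the ureteric bud tip, was at 7.34 ± 4.11 CPM in the mutant high group and 0.350 ± 0.0937 CPM in the control high group (SD, n = 2 each) and rose by 4.31 on the log2 scale (SE 0.73, edgeR adjusted p = 0.000851). The 3 ureteric bud markers, Ret, Krt8 and Krt18, of which the keratins also mark other epithelia, summed to 621 to 938 CPM in mutant high and 13.999 to 25.9 CPM in mutant low, and to 817 to 932 CPM in control high and 15.8 to 41.2 CPM in control low. Krt8 made up most of these sums in the high cells, at 749 ± 215 CPM in the mutant and 858 ± 87.3 CPM in the control (SD, n = 2 each). The 2 immune markers, Ptprc and Cd68, summed to 8.41 to 14.03 CPM in mutant high and 0.305 to 1.78 CPM in mutant low, and to 7.28 to 9.36 CPM in control high and 1.05 to 1.49 CPM in control low. Of the 10 markers, 7 rose and 2 fell in mutant high against mutant low, and 5 rose and 4 fell in control high against control low, where 32.2% and 52.3% of all loci were called in either direction.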

How the data were processed

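RNA from sorted kidney cells was sequenced in 12 libraries of 4 groups. The deposited table holds estimated counts, that is raw fragments per UCSC transcript as the authors divided them between isoforms, not scaled to depth; its file title names CuffDiff2, and, per the submitters' processing notes, Bowtie2, HTSeq and DESeq2 were used on build mm9, with no roles or versions given. Not given in the sources used here are the annotation release and the strand setting. Values were summed over transcripts that overlap on one strand (26699 loci), rounded, filtered with filterByExpr and scaled by TMM, and 13749 loci were tested with edgeR 4.0.16 (robust quasi-likelihood F test, 4 groups in 1 fit, two-sided, Benjamini-Hochberg, threshold 0.05); 21343 single transcripts were tested in the same way. The table has 303 rows without a position, holding 0 fragments, which were left out. The fit was also run on simulated data with known fold changes and a fixed dispersion. That run did not model genes without fragments in all controls, such as Cdkn2a, so it does not check those calls. CPM are TMM-scaled. Arf shares were compared with an exact permutation test over libraries that hold at least 10 fragments. Totals of 4549011 to 12365078 fragments make a count of 0 compatible with up to 3 fragments per group, for counting error only.

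The identifiers are not paired with names in the table. Deposited starts count from 0, and coordinates are given counting from 1. A name was given where chromosome, strand and exact span matched a GRCm38 transcript (GENCODE M21 or RefSeq) and where the shift between builds agreed within 50 bases with that of at least 2 other genes within 1 Mb; 16552 transcripts, 12 of 30 listed genes and 10 of 26 marker genes were named in this way. The Arf and Cdkn2b transcripts matched too, p16 was recognised by the distance of its start from that of Arf, and the plus-strand and downstream rows are given by position. Unmatched genes were not analysed here. Promoter sequences are RefSeq's, of build GRCm38.p6.

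The members and lists were chosen with earlier results of these data known. Every row of the window is reported, called or not. Neighbours are given as counts, with Mtap and Dmrta1 named where a match allowed. Of the listed genes, those called in mutant against control, Trp53 and Eed are named. Ccne1 and Ring1 are also named for calls between control populations that were lost on leaving out a library, and Ring1 and Suz12 among the results flagged for a closer look. Alternatives were RLE scaling, DESeq2 1.42.0, limma-voom 3.58.1, other low-count filters, fits of only the groups compared, blocks on replicate numbers, removal of abundant loci, each transcript as a feature and each library left out; splits by the numbers in the sample descriptions were added after seeing the data.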

Additional observations from a re-analysis of the deposited data

Results flagged for a closer look

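In the low groups, 1 library stood apart from the other 3 of its group, relative to the range, by Dixon's criterion for 8 of 55 sets of values examined, where chance gives about 1 in 20. The sets were levels by gene or transcript and group, and the Arf share in mutant low. They are not independent, since Arf, p16 and their sum were all counted. Among the members these were Arf in mutant low replicate 2, at 5.50 CPM, and the plus-strand transcript in mutant low replicate 3, at 2.11 CPM. Among neighbours they were Mtap in mutant low replicate 3, at 232 CPM, and Dmrta1 in mutant low replicate 2, at 2.29 CPM. Among listed genes they were Ccnd2 in mutant low replicate 1, at 253 CPM, Suz12 in mutant low replicate 3, at 27.0 CPM, Bmi1 in control low replicate 1, at 21.6 CPM, and Ring1 in control low replicate 2, at 87.9 CPM. The criterion does not require a large difference: Ring1 was at 92.6, 92.3 and 92.4 CPM in control low replicates 1, 3 and 4.

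The mutant effect in the 2 populations differed, by a test of the difference itself, for 1 of 11 listed genes and 2 of 10 markers, where 10.3% of all loci were called. The log2 difference, high minus low, was 2.03 for Ccnd2 (SE 0.41, edgeR adjusted p = 0.00691), 3.81 for the ureteric bud marker Ret (SE 0.85, adjusted p = 0.0117) and 4.21 for the nephron progenitor marker Osr1 (SE 1.10, adjusted p = 0.0268). The Ret difference was lost without control high replicate 1 (0.0567) or 2 (0.0796), and the Osr1 difference without mutant high replicate 1 (0.0869) or 2 (0.0663) or control high replicate 1 (0.0961) or 2 (0.152), and with limma-voom (0.0906). Osr1 alone of the 3 was lower in mutant than in control low cells, with a log2 fold change of -1.62 that did not pass the test (adjusted p = 0.0592).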

How the results depend on the processing

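No called result named here reversed direction under any alternative run. Differences that passed no test changed sign under some: in mutant high against mutant low, the log2 fold change of the Cdkn2a sum ran from -0.85 to 0.26 over all alternatives and the Arf share difference from -16.2 to 22.6 points, and the Cdkn2b difference of the mutant effect ran from -0.045 to 0.81. The rise of Cdkn2b in the mutant stayed past the threshold in both populations under every alternative run, as did that of the Cdkn2a sum in low cells. Leaving out each library in turn gave adjusted p of 0.00852 to 0.0912 for the Cdkn2a sum and 0.000157 to 0.00814 for Cdkn2b in mutant high against control high, and 0.000965 to 0.00530 and 7.93e-05 to 0.000699 in mutant low against control low. The same gave Cdkn2b 0.000115 to 0.0114 in mutant high against mutant low, 0.0237 to 0.233 in control high against control low, and 0.611 to 0.998 for the difference of the mutant effect. Cdkn2b in control high against control low also missed the threshold with each transcript as a feature (adjusted p = 0.0781), with only the 8 libraries whose description number occurs in both populations (0.0884, added after seeing the data) and with a block on that number (0.0951). DESeq2 brought Arf (0.00115) and p16 (0.0341) past the threshold in low cells. With the 8 libraries, the low-cell calls of Ccnd1 (0.175), Foxd1 (0.408), Cubn (0.210) and Mtap (0.256) were lost, as was that of Foxd1 in high cells with limma-voom (0.148) and in a fit of only the groups compared (0.0570). The cause was not tested.

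With a replicate block on the title number, Cdkn2a had adjusted p of 0.00523 and Cdkn2b 0.000225 in high cells, and 0.000666 and 0.000159 in low cells. The deviations from group means gave no consistent pairing by either number. Libraries with the same title number had correlations of -0.164 to 0.525 (0.0848 to 0.525 between mutant low and control low). High and low libraries with the same description number had -0.0852 to 0.226. The low libraries of both genotypes did share a split, with replicates 1 and 2 on one side and 3 and 4 on the other. Mutant low with control low pairs within a side had 0.0848 to 0.525, and pairs across sides had -0.481 to -0.0791. The Cdkn2a sum in mutant low split between the same sides, and the source of the split was not tested. The libraries of all 4 description-number pairs were alike in having or lacking chromosome Y fragments, and the labels do not state whether such a pair came from 1 kidney. Called loci numbered 1104 in mutant low against control low, and 257 with the 8 libraries, 427 as transcripts and 726 with description numbers up to 7. They numbered 3780 in mutant high against control high, with 2012 as transcripts and 1996 to 4010 on leaving out 1 library, and 4427 in mutant high against mutant low, with 2713 as transcripts and 2883 to 4460. The difference of the mutant effect called 1422, with 544 as transcripts and 572 to 1482. The Cdkn2a sum had no value in the fit of only the low groups, where it failed the filter, nor had the Arf share at 30 fragments; a description block could not be fitted for mutant against control. With 13 to 46 Cdkn2a fragments per mutant library and at most 6 Cdkn2b fragments per control library, depth limits the isoform shares and the control levels.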
